A study of Rattus norvegicus with 52 samples.

Results

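The acyl-CoA thioesterases Acot1 and Acot2 were represented by 5 of the 8799 probe sets of the array (8740 of them non-control), found by the GenBank accession that begins each probe set ID. The accessions ab010428 and y09332 were taken as cytosolic Acot1 and gave 2 probe sets, ab010428_s_at and y09332cds_s_at. The accessions ab010429 and y09333 were taken as mitochondrial Acot2 and gave 3, ab010429_s_at, y09333_at and y09333_g_at. No annotation used here holds these accessions, so the assignment could not be checked, which matters most for y09332cds_s_at and ab010429_s_at, whose values below differ from those of the other probe sets given the same gene. All 5 passed the filter on low values in each comparison. The rats were of the F344 strain and received clofibric acid (CA) at 0.29% or 0.54%, or nothing, and RNA from their liver sections was hybridized to 52 one-colour arrays. Microdissected liver gave 1 array at each CA dose and 2 control arrays, sections labelled LCM-reference-time and dehydrated sections each gave 1 array per dose and 1 control array, stained sections gave 7 arrays at 0.29%, 5 at 0.54% and 8 controls, and entire sections gave 8 arrays at 0.29%, 6 at 0.54% and 8 controls. LCM is laser capture microdissection, the cutting out of selected areas of tissue under a microscope. The sources used here do not give what the percentage refers to, the route, the length of treatment, the age of the rats or whether RNA was pooled. Liver cell types could not be checked by marker genes because no table used here names the probe sets.

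Acyl-CoA thioesterases split fatty acyl-CoA into a free fatty acid and coenzyme A. Acot1 acts on long-chain acyl-CoA in the cytosol, and Acot2 acts in the mitochondrial matrix, where fatty acids are oxidised. Clofibric acid is a fibrate, a class of drugs that activates the nuclear receptor PPARα, and in rodent liver both enzymes are known as targets of such peroxisome proliferators. The family arose by gene duplication, so its messages resemble each other closely. On this array design an ID ending in _at was meant to detect 1 transcript, whereas probe sets ending in _s_at or _g_at may detect several similar sequences. The probe sequences were not used here, so signal from Acot1, Acot2 and their relatives cannot be told apart for those sets.

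The 2 genes are neighbours in the rat genome, with Acot4, Acot3, Acot5 and Acot6 further along the same chromosome. Their start sites lie 24434 bases apart on chromosome 6 (assembly GRCr8). Because probe sets of both genes rose with CA, the 250 bases before each start are shown from the RefSeq promoter table, 5′ to 3′ on the + strand. Capitals mark 2 general promoter elements, CCAAT, which reads ATTGG where it lies on the opposite strand, and TATAA.
Acot1, chr6:109367024-109367273: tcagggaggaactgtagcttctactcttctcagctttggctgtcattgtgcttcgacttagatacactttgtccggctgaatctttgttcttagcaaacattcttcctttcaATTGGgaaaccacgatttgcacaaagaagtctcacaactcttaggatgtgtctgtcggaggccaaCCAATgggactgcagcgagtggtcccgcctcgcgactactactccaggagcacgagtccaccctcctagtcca
Acot2, chr6:109342590-109342839: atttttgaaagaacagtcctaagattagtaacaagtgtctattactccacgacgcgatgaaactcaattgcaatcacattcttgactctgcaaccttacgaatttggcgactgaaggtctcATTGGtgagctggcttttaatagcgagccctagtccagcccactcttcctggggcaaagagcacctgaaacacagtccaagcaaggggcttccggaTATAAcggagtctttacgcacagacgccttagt
The Acot1 window held CCAAT on the opposite strand beginning 138 bases and on the same strand 73 bases before the start. The Acot2 window held it on the opposite strand 129 bases before the start, and TATAA on the same strand 33 bases before it. In windows of the same length from 33465 promoters, searched on both strands, CCAAT occurred in 34.0% and TATAA in 24.0%. The single element AGGTCA of nuclear receptors, found in 14.1% of those windows, was in neither window, nor was the repeat AGGTCANAGGTCA, found in 0.0508%, to which PPARα binds with its partner RXR. That says only that these letters are not in these 250 bases.

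Array intensities below are the deposited ones, in whole numbers, and between 20.6% and 30.1% of the values of an array lay below 0. Fold changes come from log2 values after intensities under a floor of 4 had been raised to it and the arrays quantile normalized. Where the arrays of one group sat at that floor, the floor sets the size of the fold change. It also removes the spread among those arrays, so the SE and p do not measure that spread. The GAPDH 3′/5′ ratio, the signal from the 3′ end of that transcript over the signal from its 5′ end, is higher in degraded RNA, and its median was 7.71 in microdissected liver, 4.70 in LCM-reference-time, 11.8 in dehydrated, 8.45 in stained and 1.54 in entire sections. Among entire sections 3 arrays stood apart with a ratio above 4, and among stained sections 3 arrays had a 5S rRNA intensity above 200. No call of an Acot probe set reported here was lost without these 6 arrays. Mean array intensities lay between 117 and 209. The labels do not tie replicates to single animals, and a p-value here rests on a spread among samples that may be technical in part. In pieces of tissue, fewer cells of a type and less RNA per cell cannot be told apart.

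The first question was how CA changed the probe sets assigned to the cytosolic enzyme. In entire sections ab010428_s_at, one of them, had intensities of −4 to 13 with a median of 0.5 in the 8 controls, 120 to 258 with a median of 143.5 in the 8 arrays at 0.29% and 239 to 642 with a median of 454 in the 6 arrays at 0.54%. In stained sections it had −7 to 10 with a median of 1 in the 8 controls, 114 to 400 with a median of 305 in the 7 arrays at 0.29%, and 540, 584, 626, 809 and 532 at 0.54%. Every CA array lay far above every control array in both preparations. The rise at 0.29% was 4.86 ± 0.18 on the log2 scale in entire sections (SE, 8 against 8 arrays, limma adjusted p = 1.74e-14), or 29.1-fold. At 0.54% it was 6.42 ± 0.19 (6 against 8 arrays, limma adjusted p = 5.06e-16), or 85.4-fold. In stained sections the rises were 5.60 ± 0.28 at 0.29% (7 against 8 arrays, limma adjusted p = 7.87e-11) and 6.68 ± 0.31 at 0.54% (5 against 8 arrays, limma adjusted p = 3.6e-11). The controls sat at or near the floor, so these sizes depend on it: with a floor of 20 the rises in entire sections became 6.38-fold and 18.7-fold, and those in stained sections 13.1-fold and 27.6-fold, all still called.

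The signal on ab010428_s_at also differed between the doses in entire sections. There it was 2.93-fold higher at 0.54% than at 0.29% (log2 1.55 ± 0.19, 6 against 8 arrays, limma adjusted p = 8.62e-05), and 1 array at 0.54%, at 239, lay below the highest array at 0.29%, at 258. Both doses were above the floor on all arrays, and a floor of 20 left the fold at 2.93. Among all probe sets 0.474% were called higher at 0.54% than at 0.29%, and ab010428_s_at was the only one of the 5 called. In stained sections the 5 arrays at 0.54% all lay above the 7 at 0.29%, and the difference was 2.11-fold (log2 1.07 ± 0.32), which did not pass over all probe sets (limma adjusted p = 0.626) and did with a floor of 20 (2.11-fold, adjusted p = 0.0342).

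The other probe set assigned to Acot1, y09332cds_s_at, did not follow. Its intensity in entire sections was 53 to 96 with a median of 78.5 in controls, 51 to 95 with a median of 83 at 0.29%, and 40 to 115 with a median of 63 at 0.54%. The 3 groups overlapped almost completely, with log2 differences from control of 0.00 ± 0.20 at 0.29% (95% interval −0.42 to 0.43) and −0.27 ± 0.22 at 0.54% (−0.73 to 0.19). In stained sections it was −17 to 73 with a median of 30 in controls and 13 to 72 with a median of 34 at 0.29%, and 137, 124, 52, 38 and 70 at 0.54%. The stained arrays at 0.54% overlapped the controls, and the log2 difference of 1.73 ± 0.66 did not pass the test (5 against 8 arrays, limma adjusted p = 0.14). It passed when all 15 groups shared 1 estimate of the spread (limma adjusted p = 0.0194). The change with CA in the within-array difference y09332cds_s_at minus ab010428_s_at was −4.86 at 0.29% and −6.69 at 0.54% in entire sections, and −5.04 and −4.94 in stained sections, with no overlap between CA and control arrays in any of the 4 (exact permutation test, adjusted p of 0.00163, 0.00233, 0.00163 and 0.00408 over 21 tests added after the data were seen). So the 2 probe sets assigned to 1 gene changed by unequal amounts, with the assignment itself not checked.

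**Figure D1:**
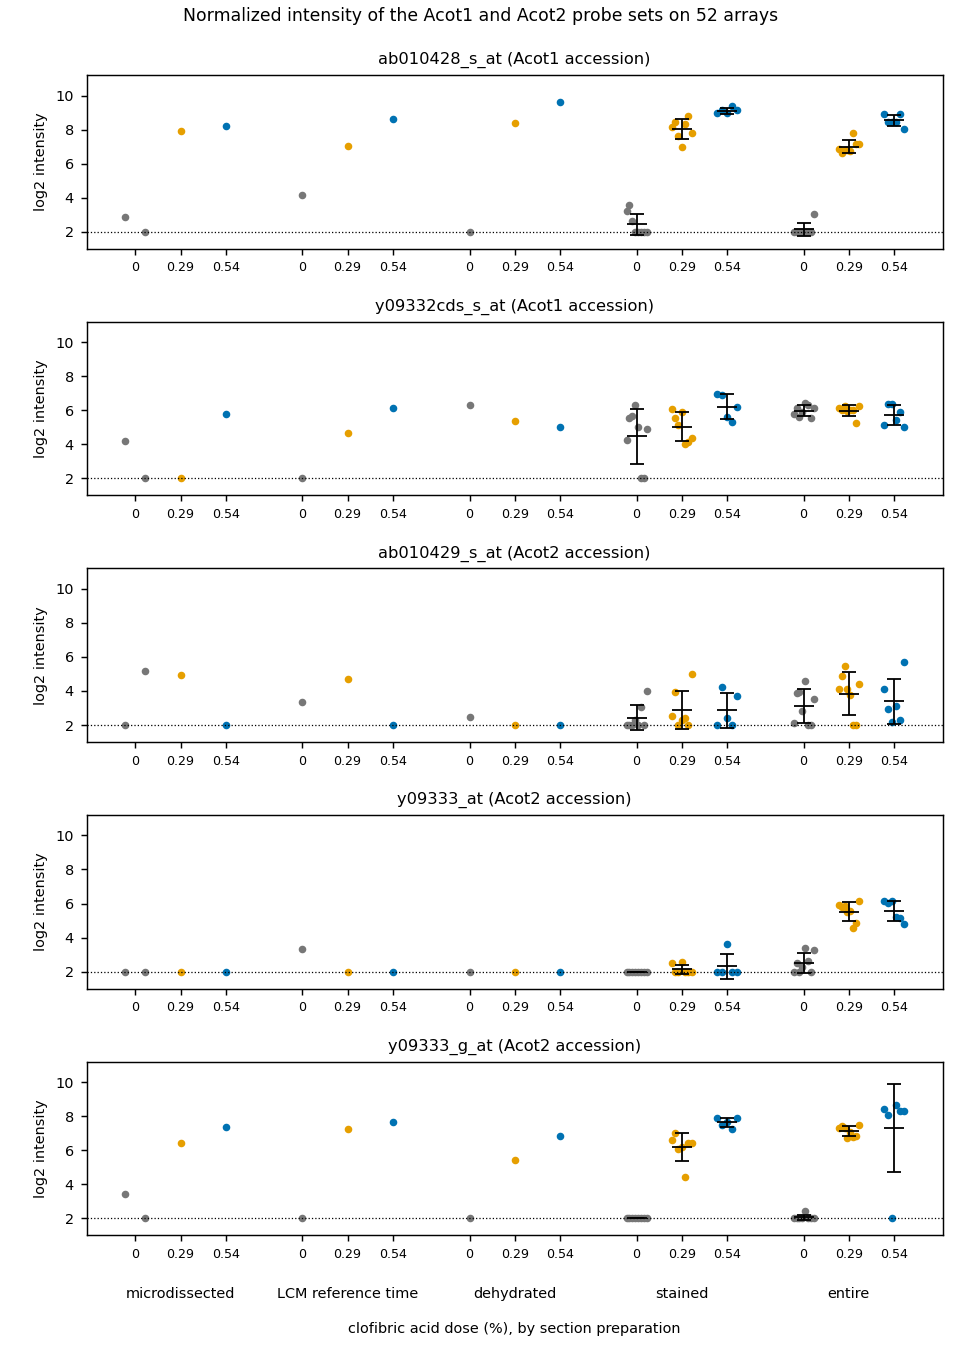
Normalized log2 intensity of each Acot1 and Acot2 probe set on each of the 52 arrays, by section preparation and CA dose (0, 0.29 and 0.54%). Points are arrays, bars are mean ± SD for groups of 3 or more, and the dotted line is the floor of 4 (2 on the log2 scale). ab010428_s_at and y09333_g_at are near the floor in controls and high with CA in each preparation, except for 1 array of y09333_g_at at 0.54% in entire sections, whereas y09333_at is clearly above the floor only in entire sections with CA.

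Among the probe sets assigned to the mitochondrial enzyme, y09333_g_at was, like ab010428_s_at, at or near the floor in controls and raised by CA. In entire sections it had −82 to 6 with a median of −9 in controls, 124 to 212 with a median of 188 at 0.29%, and −56 to 492 with a median of 382 at 0.54%. The value of −56 belonged to replicate 3 at 0.54%, where y09333_at read 84 and ab010428_s_at 445, and the other 5 arrays of that dose read 458, 359, 492, 405 and 284. In stained sections it had −39 to −7 with a median of −23.5 in controls, 23 to 123 with a median of 76 at 0.29%, and 257, 184, 249, 172 and 224 at 0.54%. Apart from that 1 array, CA and control arrays did not overlap, and in stained sections the 2 doses did not overlap either. The rise in entire sections was 5.06 ± 0.65 on the log2 scale at 0.29% (8 against 8 arrays, limma adjusted p = 7.58e-06) and 5.25 ± 0.70 at 0.54% (6 against 8 arrays, limma adjusted p = 1.02e-05). In stained sections it was 4.17 ± 0.26 at 0.29% (7 against 8 arrays, limma adjusted p = 1.56e-09) and 5.64 ± 0.29 at 0.54% (5 against 8 arrays, limma adjusted p = 5.38e-11). All 8 stained controls were below 0, so these sizes too are set by the floor, and at a floor of 20 the rises were 1.86 and 3.32 on the log2 scale in stained sections, and 2.79 and 3.36 in entire sections, all still called.

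The dose comparison of y09333_g_at rested on single arrays. In entire sections 0.54% exceeded 0.29% by 0.19 ± 0.70 on the log2 scale (6 against 8 arrays, limma adjusted p = 0.975). Without replicate 3 at 0.54% the difference was 1.25 ± 0.13 or 2.38-fold, past the test (5 against 8 arrays, limma adjusted p = 2.2e-05), and the rise over control became 6.31 ± 0.13. In stained sections the dose difference was 1.48 ± 0.30 or 2.78-fold and missed the threshold (5 against 7 arrays, limma adjusted p = 0.0762). It passed without replicate 5 at 0.29%, the array at 23, with 2.28-fold (5 against 6 arrays, limma adjusted p = 0.00704), with array weights (2.64-fold, adjusted p = 0.0454) and with a floor of 20 (2.75-fold, adjusted p = 0.0254).

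The second probe set of the same accession, y09333_at, was raised by CA in entire sections and stayed near 0 elsewhere. In entire sections it had −2 to 15 with a median of 6.5 in controls, 24 to 85 with a median of 66 at 0.29%, and 34 to 100 with a median of 64.5 at 0.54%. All 14 CA arrays lay above all 8 controls, and the 2 doses overlapped. In stained sections it had −16 to −4 with a median of −8.5 in controls, −7 to 7 with a median of −2 at 0.29%, and 1, −279, 12, −4 and 3 at 0.54%. None of the 18 CA arrays outside entire sections exceeded 12, and the value of −279, on replicate 2 of the stained arrays at 0.54%, was the lowest of this probe set on any array. The rise in entire sections was 3.02 ± 0.27 on the log2 scale at 0.29%, or 8.13-fold (8 against 8 arrays, limma adjusted p = 5.46e-08), and 3.07 ± 0.30 at 0.54%, or 8.38-fold (6 against 8 arrays, limma adjusted p = 1.02e-07). With a floor of 20 the 2 rises were 2.33-fold and 2.40-fold and still called. Between the doses it differed by 0.04 ± 0.30 (95% interval −0.57 to 0.66), which excludes neither a small rise nor a small fall.

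After staining no effect of CA on y09333_at was detected. The log2 difference from control was 0.15 ± 0.21 at 0.29% (95% interval −0.29 to 0.59, 7 against 8 arrays, limma adjusted p = 0.841) and 0.33 ± 0.23 at 0.54% (−0.16 to 0.81, 5 against 8 arrays, limma adjusted p = 0.502). All 8 stained controls and all but 3 of the 12 stained CA arrays sat at the floor. Differences near 0 were thus largely set by it, and the intervals do not bound a change. The deposited intensities had medians of −8.5 in controls, −2 at 0.29% and 1 at 0.54%, and this shift below the floor was not tested. With a floor of 20 no such value could be fitted, since no stained array reached it. These intensities do not separate absence of the transcript from a level below what the probe set detects.

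The third probe set assigned to Acot2, ab010429_s_at, stayed dim. Its intensity lay between 3 and 59 on the 14 CA arrays of entire sections and between −2 and 27 on their 8 controls, and between −9 and 20 on the 12 CA arrays of stained sections and −8 and 14 on their 8 controls. The groups overlapped. The log2 differences from control were 0.74 ± 0.57 at 0.29% and 0.29 ± 0.62 at 0.54% in entire sections, and 0.46 ± 0.48 and 0.45 ± 0.52 in stained sections, none past the test (limma adjusted p of 0.523, 0.826, 0.777 and 0.714). Their 95% intervals reached from −0.99 to 1.93 over the 4 comparisons. In stained sections only 11 of 20 arrays exceeded the floor, so these intervals depend on it and do not bound a change in the transcript. The sizes for y09333_g_at are set by the floor too, so the 2 probe sets cannot be compared by size.

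Counted together, 3 of the 5 probe sets were called higher with CA in entire sections at each dose (ab010428_s_at, y09333_at and y09333_g_at), where 5.55% of 7804 probe sets tested were called higher at 0.29% and 8.1% at 0.54%. In stained sections 2 of the 5 were called higher at each dose (ab010428_s_at and y09333_g_at), where 1.83% of 7913 were called higher at 0.29% and 3.12% at 0.54%. Between the doses in stained sections none was called, where 0.0632% of probe sets were.

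**Figure D2:**
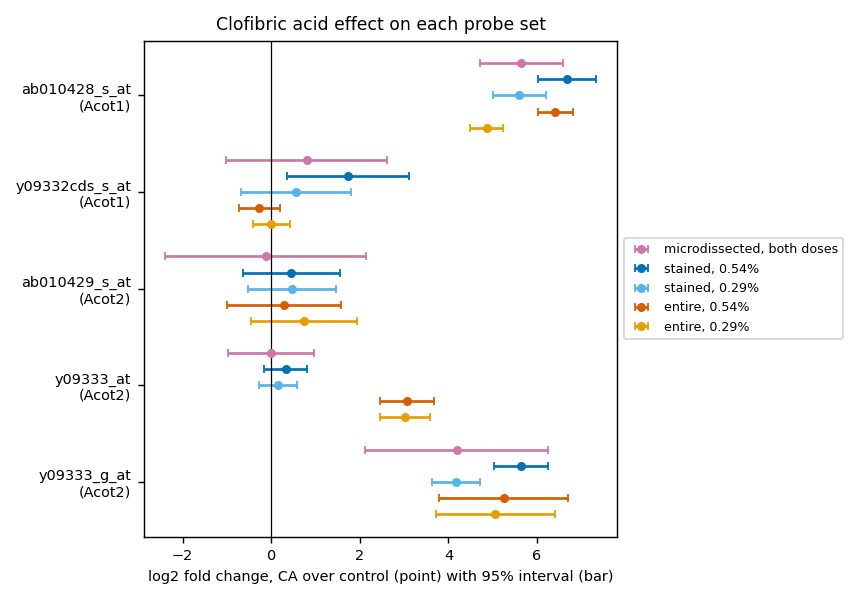
Log2 fold change of CA over control for each probe set (points, with 95% intervals from limma as bars), in microdissected liver with both doses averaged, and in stained and entire sections at 0.54% and 0.29%. The intervals of y09333_at lie between 2.45 and 3.69 in entire sections. They lie near 0 in microdissected and stained sections, where most arrays sat at the floor. Those of ab010428_s_at and y09333_g_at lie above 2 in all 5 comparisons.

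The second question was whether the response differed between stained and entire sections. For y09333_at the CA effect was smaller after staining by 2.87 ± 0.35 on the log2 scale at 0.29% (limma interaction −2.87, adjusted p = 4.76e-06) and by 2.74 ± 0.38 at 0.54% (interaction −2.74, adjusted p = 2.72e-05). It was called at both doses, where 0.061% of 8191 probe sets had a lower effect after staining at 0.29% and 0.11% at 0.54%. Most stained arrays were at the floor, so these sizes depend on it. With a floor of 20 they were −1.22 (limma adjusted p = 0.00491) and −1.26 (limma adjusted p = 0.00517). No stained array and no entire control exceeded 20, so those values only repeat the rise in entire sections with the sign reversed. For y09333_g_at the same difference was −0.89 ± 0.73 at 0.29% (95% interval −2.37 to 0.59) and 0.40 ± 0.80 at 0.54% (−1.22 to 2.01), neither past the test. The sign at 0.54% rested on 1 array. Without entire replicate 3 at that dose, the array at −56, the value was −0.66 ± 0.31 (limma adjusted p = 0.486). For ab010428_s_at the difference of effects was 0.74 ± 0.33 at 0.29% (0.07 to 1.41, limma adjusted p = 0.948) and 0.26 ± 0.36 at 0.54% (−0.47 to 0.99, limma adjusted p = 0.837). With a floor of 20 the first of these became 1.04 and passed (limma adjusted p = 0.0285). Neither remaining probe set passed at either dose.

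Set directly against each other, the levels of y09333_at were lower in stained than in entire sections at 0.29% CA (log2 −3.38 ± 0.25, 7 against 8 arrays, limma adjusted p = 3.83e-12) and at 0.54% (log2 −3.25 ± 0.29, 5 against 6 arrays, limma adjusted p = 3.75e-10). Most stained arrays were at the floor, so these sizes are set by it and are no measured fold. The SE and p likewise leave out the spread of values below the floor. A floor of 20 reduced these differences to −1.22 and −1.26 on the log2 scale, which again repeat the rise in entire sections with the sign reversed. The share of probe sets called lower was 11.1% at 0.29% and 5.21% at 0.54%, so a difference between the preparations was common on the array. Between the controls, where 13.8% were called lower, y09333_at differed by −0.51 ± 0.24 (8 against 8 arrays, limma adjusted p = 0.112). For y09333_g_at the stained minus entire difference was −0.94 ± 0.53 at 0.29% CA (limma adjusted p = 0.211). At 0.54% it was 0.35 ± 0.61 (limma adjusted p = 0.861), or −0.71 ± 0.25 without entire replicate 3 (limma adjusted p = 0.0631). None of these passed.

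The probe sets assigned to Acot1 also differed with staining. ab010428_s_at was 2.05-fold higher in stained than in entire sections at 0.29% (log2 1.04 ± 0.24, limma adjusted p = 0.00128), where 11.7% of probe sets were called higher, and it lost that call with the GAPDH ratio as a covariate (0.58 ± 0.29, adjusted p = 0.347). At 0.54% the difference was 0.56 ± 0.28 (limma adjusted p = 0.234). y09332cds_s_at was lower in stained than in entire controls (log2 −1.52 ± 0.43, 8 against 8 arrays, limma adjusted p = 0.00684), and this call was also lost with that covariate (−0.62 ± 0.62, adjusted p = 0.715). Without quantile normalization, on the deposited scale centred by array, the median of all probe sets was higher after staining by 0.42 in controls, 0.33 at 0.29% and 0.27 at 0.54% on the log2 scale, and ab010428_s_at in controls then passed at 0.68 (limma adjusted p = 0.0244) against 0.30 with normalization.

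The pair y09333_g_at and y09333_at carries the same accession, so their difference was followed within each array. Only its change between groups is read, since levels of different probe sets are not comparable. The difference of y09333_g_at minus y09333_at on the log2 scale averaged 4.01 ± 0.81 at 0.29% in stained sections and 0.00 in their controls, where both probe sets sat at the floor (SD, n = 7 and 8, exact permutation p = 0.000311, adjusted p = 0.00104). At 0.54% it averaged 5.32 ± 0.76 in stained sections (SD, n = 5, exact permutation p = 0.00155, adjusted p = 0.00311). In entire sections it averaged 1.58 ± 0.35 at 0.29% and −0.46 ± 0.48 in controls (SD, n = 8 each, exact permutation p = 0.000155, adjusted p = 0.00104). In stained sections y09333_at was at or near the floor with CA as well, so the first 2 values restate the rise of y09333_g_at over the floor and tell nothing further about the pair. In entire controls y09333_g_at exceeded the floor on 1 of 8 arrays and y09333_at on 5. So the values in entire sections mostly set levels of different probe sets against each other and do not show which rose more. Each of these 3 comparisons gave the smallest p that its number of arrays allows, and CA arrays did not overlap with controls. At 0.54% in entire sections it averaged 1.72 ± 2.94 (SD, n = 6, exact permutation p = 0.0646, adjusted p = 0.0923). Without replicate 3, the array with y09333_g_at at −56, it averaged 2.89 ± 0.69 and lay above all controls (SD, n = 5, exact permutation p = 0.00155).

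**Figure D3:**
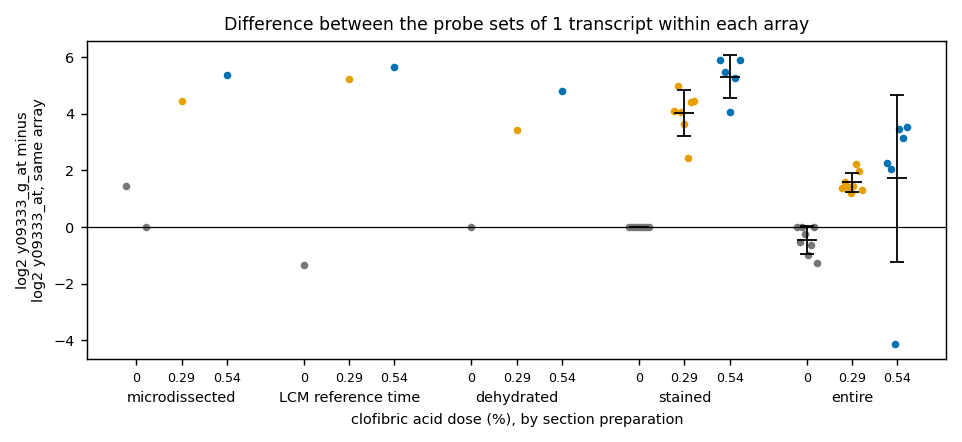
Log2 intensity of y09333_g_at minus that of y09333_at on the same array, for all 52 arrays by section preparation and CA dose, with mean ± SD for groups of 3 or more. With CA the difference lies between 2.43 and 5.90 on the stained, dehydrated, LCM-reference-time and microdissected arrays and between 1.21 and 3.52 on the entire arrays, except for 1 entire array at 0.54% with −4.15.

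The other strongly raised probe set, ab010428_s_at, was also set against y09333_g_at within arrays. The within-array difference ab010428_s_at minus y09333_g_at changed with CA by −0.19 at 0.29% (n = 8 each, exact permutation p = 0.451) and by 1.17 at 0.54% (n = 6 and 8, exact permutation p = 0.256), or 0.13 without replicate 3, and neither passed. In stained sections it changed by 1.44 at 0.29% (n = 7 and 8, exact permutation adjusted p = 0.00783) and by 1.03 at 0.54% (n = 5 and 8, adjusted p = 0.0245). The controls of both probe sets sat at or near the floor in entire and in stained sections. So all 4 values mostly set the levels of different probe sets against each other. They do not show which rose more, or that both rose alike. Of the 20 comparisons of each other member with y09333_at within arrays, 13 passed after adjustment, and of 21 that were added after the data were seen, 12 passed. In stained sections y09333_at was near the floor throughout, so the comparisons with it there follow the other probe set.

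Staining, GAPDH ratio and the y09333_at level moved together, so their values are given side by side, and the part of RNA quality in the low y09333_at signal was not tested. CA arrays of entire sections had GAPDH 3′/5′ ratios of 1.18 to 6.49, and the 18 CA arrays of the other preparations had 2.59 to 14.3. In the stretch that both share, 2.59 to 6.49, y09333_at read −13 to 12 on 10 arrays of the other preparations and 24 to 45 on 3 arrays of entire sections. On the same arrays y09333_g_at read 39 to 257 in the other preparations and 124 to 405 in entire sections. Of those 3 entire arrays 2 are among the arrays said above to stand apart, with ratios of 5.07 and 6.49 and y09333_at at 39 and 45. With the log2 GAPDH ratio as a covariate the stained minus entire difference of y09333_at was −2.76 ± 0.29 at 0.29% (limma adjusted p = 1.19e-07) and −2.88 ± 0.29 at 0.54% (limma adjusted p = 6.71e-09). Calls over all probe sets then numbered 345 beside 1868 without the covariate at 0.29%, 549 beside 830 at 0.54% and 400 beside 2475 in controls. Most stained values of y09333_at sat at the floor and could not vary with the ratio, so this fit is no test of RNA quality.

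Within the entire sections at 0.29%, y09333_at was lower on arrays with a higher GAPDH ratio (n = 8, Pearson r = −0.851, exact permutation p = 0.0179; Spearman rho = −0.738, exact permutation p = 0.0458). Over the 11 correlations computed the adjusted p values were 0.196 and 0.382, and r was −0.605 without the 2 arrays farthest from the median ratio. On the same arrays y09333_g_at had r = −0.678 and rho = −0.690 with the ratio (n = 8, exact permutation p = 0.0426 and 0.0694, r = −0.611 without those 2), and ab010428_s_at had r = 0.590 and rho = 0.619 (n = 8, exact permutation p = 0.130 and 0.115, r = −0.00969 without them). For y09333_at at 0.54% r was −0.473 and rho −0.314 (n = 6, exact permutation p = 0.403 and 0.564), and none of the 11 correlations passed adjustment. Which part of each transcript the probe sets match was not used here.

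**Figure D4:**
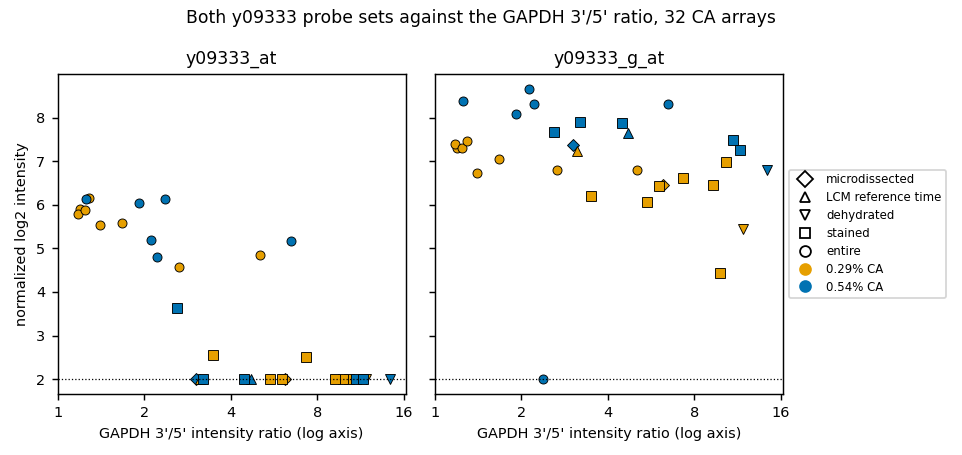
Normalized log2 intensity of y09333_at (left) and y09333_g_at (right) against the GAPDH 3′/5′ ratio of the array (log axis), for the 32 arrays with CA. Symbols give the preparation, colours the dose, and the dotted line the floor. Between ratios of 2.59 and 6.49, where entire and other sections overlap, y09333_at reads 24 to 45 in deposited intensity on 3 entire arrays and −13 to 12 on 10 others, and y09333_g_at 124 to 405 and 39 to 257.

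The remaining preparations had 1 array at each CA dose, so their values stand without a test except for microdissected liver, where the 2 doses were averaged and the spread of all 15 groups was used. ab010428_s_at read 101 at 0.29% and 267 at 0.54% in microdissected liver, against 6 and 0 in its 2 controls. It read 12, 79 and 326 in LCM-reference-time sections and −8, 387 and 761 in dehydrated sections, at 0, 0.29 and 0.54%. The higher dose gave the higher value in all 3 preparations. In microdissected liver the arrays differed in brightness, with mean intensities of 117 at 0.29% and 190 at 0.54%. The normalized log2 values of ab010428_s_at there were closer, at 7.92 and 8.24. y09333_g_at read 39 at 0.29% and 156 at 0.54% in microdissected liver, against 9 and −12 in controls. It read −18, 89 and 161 in LCM-reference-time sections and −4, 49 and 89 in dehydrated sections, in the same order of doses as before. It too was highest at 0.54% each time, with normalized log2 values in microdissected liver of 6.45 at 0.29% and 7.38 at 0.54%.

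y09333_at was absent from this pattern. It read −4 and −8 with CA in microdissected liver, against −11 and −23 in controls. In LCM-reference-time sections it read 6, 0 and −13, and in dehydrated sections −5, −14 and −5, at 0, 0.29 and 0.54%. Thus y09333_at stayed at or under 6 on all 10 arrays of these preparations while y09333_g_at of the same accession was 39 or more on each of the 6 with CA. y09332cds_s_at read −4 and 55 with CA and 14 and −17 in controls of microdissected liver, −12, 19 and 59 in LCM-reference-time sections and 91, 46 and 21 in dehydrated sections, with opposite orders of the doses in the last 2 preparations. ab010429_s_at stayed between −11 and 23 on all 10 arrays.

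In microdissected liver 2 of the 5 probe sets were called higher with CA, where 5.77% of 8318 probe sets were. ab010428_s_at rose by 5.64 ± 0.46 on the log2 scale (2 against 2 arrays, limma adjusted p = 2.2e-12) and y09333_g_at by 4.19 ± 1.02 (limma adjusted p = 0.00433). The call of y09333_g_at was lost with array weights (limma adjusted p = 0.401) and without control replicate 2 (3.46 ± 1.25, limma adjusted p = 0.0827). The lone arrays are assumed to vary like the other groups. y09333_at differed by 0.00 ± 0.48 (95% interval −0.97 to 0.97), all 4 arrays lying at the floor.

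Over the means of the 15 groups, ab010428_s_at and y09333_g_at had a Pearson r of 0.931, whereas y09333_at had 0.119 with the first and 0.193 with the second. These points share the CA contrast, the preparations and the arrays, and are given as a description. The r of 0.931 is not particular to the pair. By the same measure y09333_g_at had 0.974 with j02773_at and 0.973 with d17695_s_at. For ab010428_s_at the values were 0.985 with rc_aa800243_at and 0.980 with j02749_at. Of 4045 probe sets above the floor on every entire array with CA, the 2 whose group means followed y09333_at most closely were m95791cds_f_at with r = 0.859 and x55286_g_at with r = 0.837, which are not named by any table used here. In entire sections m95791cds_f_at read 8 to 36 at 0.29% and −5 to 29 in controls, and x55286_g_at 7 to 25 at 0.29% and 11 to 23 in controls. Their CA and control arrays overlapped, unlike those of y09333_at, and being above the floor in entire sections with CA was a condition of the choice.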

How the data were processed

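The deposited values are linear intensities, 1 whole number per probe set and array, as the authors deposited them; which software and scaling they used is not given in the sources used here. None of the accessions in the IDs matched an entry of the gene table used here, so lists of pathway genes and cell type markers fixed by symbol could not be applied, and the members rest on their accessions. Members, lists and tests were chosen with earlier results of these data known. The probe sets named beside the members are the 2 with the highest correlation of group means with y09333_at, and likewise 2 each for y09333_g_at and ab010428_s_at.

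Intensities below 4, the 10th percentile of the positive values, were raised to 4, and log2 values of the 8740 non-control probe sets were quantile normalized over all 52 arrays. Contrasts of group means came from limma 3.58.1 under R 4.3.3 (lmFit, eBayes, two-sided), with Benjamini-Hochberg adjustment over the probe sets that exceeded the floor on 1 or more of the arrays fitted, and calls at an adjusted p under 0.05. The 3 entire groups were fitted together, likewise the 3 stained groups, contrasts of the preparations used those 6 groups, and microdissected liver used all 15. Differences between probe sets within arrays and correlations were tested by two-sided exact permutation in SciPy 1.17.1 with Python 3.11.15, and plots were drawn with matplotlib 3.10.9. No replicates held identical values. Alternatives tried were centring of the deposited scale on each array's median, another floor (20), a filter on mean intensity at the 25th percentile, all groups in the fit, array weights, a replicate block, another variance prior, the GAPDH ratio as covariate, leaving out the 6 arrays that stood apart, and leaving out each array. The number of arrays limits the precision. The fit was also run on simulated data. Only probe sets well above the floor in entire controls were changed there, so that run does not cover members with controls at the floor. No batch or scan date is given.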

Additional observations from a re-analysis of the deposited data

Results flagged for a closer look

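The effect of CA on y09333_at differed between stained and entire sections by −2.8695 on the log2 scale at 0.29% (adjusted p = 4.76e-06) and by −2.7417 at 0.54% (adjusted p = 2.72e-05), by the limma interaction term, the effect being smaller after staining at both doses. These were the only ones of 10 such differences over the 5 probe sets and 2 doses to pass. Most stained arrays of y09333_at sat at the floor, so the sizes depend on it.

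In 2 of 30 sets of 4 to 10 arrays, 1 array lay far from the rest by Dixon's criterion, which chance gives in about 1 set in 20. The entire control replicate 8 had an intensity of 13 for ab010428_s_at, against −4 to 3 on the other 7 controls. Replicate 2 of the stained arrays at 0.54% CA had −279 for y09333_at, against −4 to 12 on the other 4. Raised to the floor, the value of −279 counts like any other below 4. The array at −56 for y09333_g_at in entire sections at 0.54%, left out in some fits above, was not flagged by this criterion.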

How the results depend on the processing

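All 107 alternative values of y09333_at and of the count of within-array comparisons kept their side of the threshold, and the called ones their direction. Those of y09333_at within stained sections and in microdissected liver could hardly gain a call. Most or all arrays there sat at the floor, so these values say little about stability. Differences of y09333_at that were not called could change sign, as between stained and entire controls (−0.58 to 0.26). Of the alternative values for the other 4 probe sets, 417 kept their side of the threshold, 9 gained a call, 3 lost one and no called value reversed, with the losses named beside their results. These tallies do not include the fits with 1 array left out. In those fits y09333_g_at gained a call between the doses in entire and in stained sections, and lost its call in microdissected liver. The rise of y09333_at in entire sections ranged from 1.22 to 3.30 on the log2 scale at 0.29% and from 1.26 to 3.42 at 0.54%, the low ends with a floor of 20. Leaving out 1 array gave 2.93 to 3.16 and 2.95 to 3.22. The stained minus entire difference of the CA effect ranged from −3.04 to −1.22 at 0.29% and from −3.14 to −1.26 at 0.54%. The values of −1.22 and −1.26, with a floor of 20, only repeat the rise in entire sections with the sign reversed. The within-array comparisons that passed numbered 13, and 12 to 14 with 1 array left out.

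The replicate numbers were not taken as pairing the samples, since of 57 pairs of same-numbered arrays 22 had a correlation of deviations over 0.1, from −0.173 to 0.504. The pairs differed by groups: 6 of 7 were over 0.1 between stained 0.29% and stained control arrays and 5 of 8 between entire 0.29% and entire control arrays, a hint from the data that some numbers may be shared. With the replicate number as a block, the rise of y09333_at was 3.02 at 0.29% and 3.08 at 0.54% in entire sections, 0.15 and 0.30 in stained sections, and the difference of effects −2.80 and −2.81. No member's call changed with the block.

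ab010429_s_at was called lower in stained than in entire sections at 0.29% with array weights (−1.35) and without the 6 arrays that stood apart (−1.58), and y09332cds_s_at with a floor of 20 (−0.89). Counts over all probe sets moved by more than 1.5 times in some settings, given here beside the count used in the text. For CA against control in entire sections they were 539 beside 877 at 0.29% and 790 to 1933 beside 1236 at 0.54%, and in stained sections 546 beside 286 and 301 to 964 beside 499. Between the doses they were 34 to 331 beside 79 in entire and 1 to 19 beside 5 in stained sections. For stained against entire sections they were 400 to 3798 beside 2475 in controls, 345 to 2780 beside 1868 at 0.29% and 549 beside 830 at 0.54%, where 400, 345 and 549 came with the GAPDH ratio as covariate. For the difference of effects they were 4 to 17 beside 7 at 0.29% and 6 to 30 beside 11 at 0.54%, and in microdissected liver 312 to 1841 beside 1069. Centring of the deposited scale gave 2817 higher and 981 lower calls for stained against entire controls (1347 and 1128 with normalization), 1952 and 828 at 0.29% (961 and 907), 564 and 366 at 0.54% (403 and 427), 20 and 14 between the doses in entire sections (37 and 42) and 177 and 135 in microdissected liver (480 and 589). A floor of 20 left y09333_at and ab010429_s_at out of the stained fits, since neither exceeded it on a stained array. Signals near the floor, with 1 array a dose in 3 preparations and unnamed probe positions, limit all of the above.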
